A study of Mus musculus with 12 samples.

Results

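The transcriptional response to NP-D@MP was compared with that to PBS after 24 h in CT26, a line of mouse colon carcinoma, over all genes of the deposited expression table. The comparison used 6 of the 12 libraries of the study, 3 labelled PBS (N1, N2 and N3) and 3 labelled NP-D@MP (N10, N11 and N12), all from the same line and the same time point. The other 6 libraries, 3 of cells given NP@M and 3 of cells given NP-D@M, entered the models only through the shared estimate of the spread, apart from a closing comparison with NP-D@M. The labels do not spell out NP, D, M or P. The title of the study names a nanodrug that carries membrane of engineered cancer cells and acts on CDKs, so the comparison sets the most complete formulation against the vehicle. Nothing in the labels says whether the 3 libraries of a treatment are separate cultures, so p-values cover only the spread between these libraries, which may be technical. A single line grown alone also holds none of the host cells that a tumour would have.

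Cyclin-dependent kinases (CDKs) fall into a cell cycle branch and a transcriptional branch. CDK1, CDK2, CDK4 and CDK6 pair with A, B, D and E type cyclins and drive entry into S phase and mitosis, while CDK inhibitor proteins such as p21 hold them in check. CDK7, CDK9, CDK12 and CDK13 phosphorylate RNA polymerase II and its partners, and transcripts with short half-lives, among them immediate early genes and the survival factor MCL1, are known to depend on steady activity of that branch.

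Of the 12584 genes in the table, 10101 reached 1 FPKM (a gene's reads divided by its length and by the size of the library) in at least 3 libraries and were tested. The reads behind the values could be recovered exactly, and summed to 15.1 ± 1.01 M with PBS and 13.9 ± 0.435 M with NP-D@MP (mega-reads, mean ± SD, n = 3). The authors' divisor, the library size behind the FPKM, was 1.98 ± 0.0379 times this sum with PBS but 0.534 ± 0.0015 times with NP-D@MP. Those sizes tracked median-ratio size factors computed from the recovered reads, with relative quotients between 0.965 and 1.04. A gene's fold change was therefore 3.71 times larger in deposited FPKM than after rescaling to the reads in the table, and both are given here. Log2 changes are on the log2(value + 1) scale and so come out smaller than the fold for low genes, and folds are ratios of group means. In what follows a gene rose or fell only if limma called it the same way, at a Benjamini-Hochberg adjusted p under 0.05, in deposited and in rescaled values. Both scalings are relative within a library, so fewer cells of a type and less RNA per cell cannot be told apart in these bulk samples. One library of the NP-D@M group, N9, stood apart from its label: across genes it correlated at r = 0.991 to 0.992 with the NP-D@MP libraries and at r = 0.978 with N7 and N8. It takes no part in the NP-D@MP or PBS means, and with only the 6 libraries of the comparison in the models the numbers of genes that rose and fell were 1872 and 4870.

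Markers fixed by cell type were in the table to differing extents, most fully those of fibroblasts and stroma. Of 11 markers of colon epithelium, 3 were in the table (Krt18, Krt20 and Lgr5), and Epcam, Cdh1, Krt8, Krt19, Vil1, Cdx1, Cdx2 and Muc2 were not among its genes. Krt20 went from 9.06, 9.12 and 9.64 FPKM with PBS to 75.6, 88.2 and 77.4 FPKM with NP-D@MP, and rose. Krt18 went from 9.61, 9.26 and 5.61 FPKM to 4.47, 2.94 and 5.17 FPKM, and fell. Lgr5 was not tested, and all 3 together, most of it Krt20 with NP-D@MP, summed to between 15.3 and 18.7 FPKM with PBS and between 80.04 and 91.2 FPKM with NP-D@MP. All 4 tested markers of fibroblasts and stroma fell, and the 6 in the table summed to between 71.9 and 86.6 FPKM with PBS and between 12.9 and 15.4 FPKM with NP-D@MP. None of the 8 lymphoid, 6 erythroid or 5 liver markers was in the table, and the endothelial markers summed to at most 0.491 FPKM. Of 8 myeloid markers 3 were tested, of which Cd68 rose and Cd14 fell, and the 4 in the table summed to between 8.88 and 10.7 FPKM with PBS and between 17.9 and 26.05 FPKM with NP-D@MP. After rescaling this sum went the other way, from 17.97 to 20.8 with PBS and from 9.57 to 13.9 with NP-D@MP. The part of these markers in the results below was not tested. The protocol text of the labels mentions retinas. Of 10 retina markers only Sag was in the table, at 0.0718 to 0.158 FPKM with PBS and 0.210 to 0.459 FPKM with NP-D@MP. Rescaled, Sag stood at 0.145 to 0.307 with PBS and 0.113 to 0.245 with NP-D@MP, and the groups overlapped.

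Gene expression in the NP-D@MP libraries differed from PBS across most of the table. In all, 1771 genes (17.5% of those tested) rose and 4777 (47.3%) fell, and these shares are the background for the counts below. Over the 8912 tested protein-coding genes alone, the nearer background for lists of such genes, 14.3% rose and 51.4% fell. Deposited FPKM alone gave 4367 higher (43.2%) and 4777 lower (47.3%), and rescaled values alone gave 1771 higher (17.5%) and 7145 lower (70.7%). Calls in either direction came to 90.5% of genes in deposited values, 88.3% in rescaled values and 64.8% the same way in both. The median log2 change of all tested genes was -0.16 in deposited values and -1.46 after rescaling, a shift of -1.29. Rescaling turned 1517 genes (15.02%) from called higher to called lower, and 106 genes were called in neither. Quantile normalization, which forces all libraries to a common distribution, called 1593 of the 1771 risen genes higher and 64 lower, and of the 4777 fallen genes it called 3617 lower and 28 higher. A log2 change of at least 3 in both scalings was reached by 46 risen genes, of which 9 were protein-coding, and by 66 fallen genes, of which 63 were protein-coding. When only genes with a mean of at least 5 FPKM over the 12 libraries were tested, 1461 rose and 1339 fell.

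**Figure D1:**
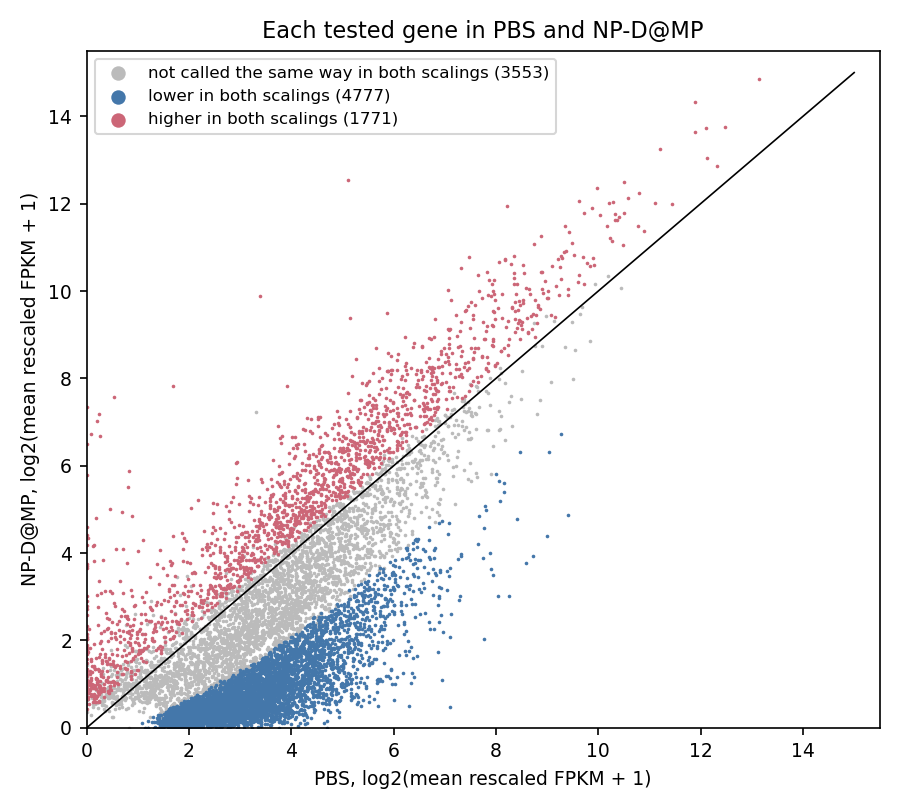
Mean rescaled level of each of the 10101 tested genes with PBS (horizontal axis) and with NP-D@MP (vertical axis), both as log2(rescaled FPKM + 1), coloured by call. The line marks equal levels. Genes above it at the high end rose, and the bulk of genes of low and middle level lies below it.

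A larger share of the reads fell on few genes with NP-D@MP. The share taken by the 10 genes with most reads was 6.296 ± 0.138% with PBS and 16.5 ± 0.524% with NP-D@MP, and for the 100 highest it was 20.5 ± 0.561% and 45.6 ± 0.386%. Mitochondrially encoded genes went from 3.37, 3.30 and 3.39% of the reads to 7.41, 10.2 and 9.17%. Ribosomal protein genes went from 6.63, 6.52 and 5.93% to 16.2, 15.6 and 15.7%, and pseudogenes from 2.11 ± 0.0987% to 4.79 ± 0.0994%. All other nuclear protein-coding genes together held 87.1 ± 0.48% with PBS and 67.0 ± 0.596% with NP-D@MP. The long noncoding RNA Gm26917, picked after its values were seen, went from 0.0109, 0.0121 and 0.0106% to 2.41, 1.74 and 1.78% of all reads. Long intergenic noncoding RNA other than Gm26917 went from 0.297 ± 0.0224% to 0.159 ± 0.0133%. For each of these classes the 3 libraries of a group lay apart from the other 3, and the exact two-sided permutation test gave p = 0.1, the smallest value 3 against 3 allows. Genes with a value of at least 1 FPKM numbered 9185 ± 17.8 with PBS and 7825 ± 24.2 with NP-D@MP.

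**Figure D2:**
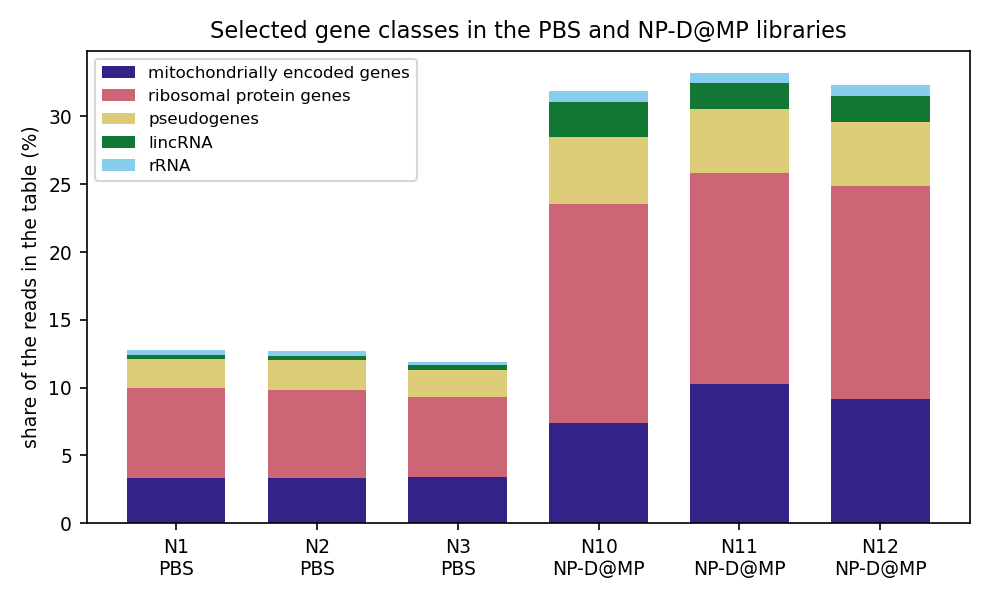
Share of the reads in the table (%, vertical axis from 0) held by 5 classes of gene in each PBS and NP-D@MP library, stacked. Ribosomal protein genes and mitochondrially encoded genes take up most of the difference between the groups.

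Of 16 tested CDK genes, 2 rose (12.5%) and 10 fell (62.5%). Cdk1 (ENSMUSG00000019942, chr10:69335146-69352938, minus strand, GRCm38), the kinase of entry into mitosis, stood at 18.2, 17.5 and 17.1 FPKM in the PBS libraries and 1.11, 1.02 and 1.56 FPKM in the NP-D@MP libraries. The groups did not overlap, as held for 93.0% of tested genes in deposited and 90.3% in rescaled values, and its mean was 14.3-fold lower in deposited and 53.1-fold lower in rescaled values (log2 change -3.07, SE 0.14, and rescaled -4.44, SE 0.12, with limma adjusted p = 1.69e-09 and 1.85e-11). Cdk2 (ENSMUSG00000025358, chr10:128697939-128705031, minus strand), which acts at the start of S phase, stood at 4.19, 4.69 and 4.87 FPKM in the PBS libraries and 1.63, 0.975 and 0.789 FPKM in the NP-D@MP libraries, a difference of -1.41 deposited and -2.66 rescaled in log2. Among kinases of the transcriptional branch, Cdk7 (ENSMUSG00000069089, chr13:100702631-100730939, minus strand) went from 5.03 ± 0.338 to 0.4796 ± 0.362 FPKM, Cdk12 (ENSMUSG00000003119, chr11:98203059-98278504, plus strand) from 2.598 ± 0.166 to 0.872 ± 0.341 FPKM and Cdk13 from 3.03 ± 0.201 to 0.643 ± 0.0244 FPKM. All 3 fell, and in Cdk7 the NP-D@MP libraries spread from 0.108 to 0.832 FPKM. Cdk9 (ENSMUSG00000009555, chr2:32705784-32713076, minus strand), the kinase of transcription elongation, also fell and stood at 8.53, 8.44 and 7.59 FPKM in the PBS libraries and 5.37, 4.75 and 5.96 FPKM in the NP-D@MP libraries, 1.53-fold lower in deposited and 5.66-fold lower in rescaled values (limma adjusted p = 2.56e-04 and 2.57e-10). The fall of Cdk12 did not pass the threshold with quantile normalization (log2 change -0.37).

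Cdk4, Cdk5 and Cdk6 did not move together. Cdk4 (ENSMUSG00000006728, chr10:127063534-127067920, plus strand), a kinase of the G1 phase, stood at 98.04, 102 and 83.04 FPKM in the PBS libraries and 674, 635 and 652 FPKM in the NP-D@MP libraries, 6.94-fold higher in deposited and 1.87-fold higher in rescaled values. With quantile normalization its log2 change was 0.15, which did not pass the threshold. Cdk6 (ENSMUSG00000040274, chr5:3341485-3531008, plus strand), its close relative, fell from 5.17 ± 0.0972 to 2.88 ± 0.31 FPKM. Cdk5 (ENSMUSG00000028969, chr5:24418241-24423530, minus strand), known for its work in neurons, stood at 6.07, 7.55 and 6.06 FPKM in the PBS libraries and 78.5, 84.6 and 86.3 FPKM in the NP-D@MP libraries. It was the largest rise among the CDK genes in either scaling, 12.7-fold higher in deposited and 3.42-fold higher in rescaled values (log2 change 3.48, SE 0.13, and rescaled 1.70, SE 0.12, with limma adjusted p = 3.48e-10 and 4.34e-08). Part of the 50-base words of Cdk4, 17.0%, also occur in other genes, so its level is less certain, while Cdk5 shares 0%.

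Of 20 tested cyclin genes, 1 rose (5%) and 12 fell (60%). Ccnb1 (ENSMUSG00000041431, chr13:100778650-100786570, minus strand), the mitotic partner of CDK1, stood at 28.1, 26.6 and 26.6 FPKM in the PBS libraries and 2.22, 2.56 and 1.43 FPKM in the NP-D@MP libraries, 13.1-fold lower in deposited and 48.6-fold lower in rescaled values, and shares 23.4% of its 50-base words with other genes. Ccna2 fell from 25.4 ± 1.64 to 2.13 ± 0.4205 FPKM, Ccnf from 13.2 ± 1.08 to 1.79 ± 0.175 FPKM, and Ccnt1, the partner of CDK9, from 5.11 ± 0.266 to 1.21 ± 0.227 FPKM. Ccnd1 (ENSMUSG00000070348, chr7:144929931-144939925, minus strand), the D-type cyclin of CDK4 and CDK6, stood at 94.5, 94.97 and 87.6 FPKM in the PBS libraries and 259.6, 274 and 252 FPKM in the NP-D@MP libraries. Its direction rested on the scaling: the log2 change was 1.495 in deposited and -0.38 in rescaled values, and -0.94 with quantile normalization. Ccnd1 shares 21.6% of its 50-base words with other genes. The one riser, Ccni, went from 116 ± 2.17 to 540.4 ± 16.97 FPKM and was called lower with quantile normalization. All 5 tested CDK inhibitor genes fell, also with quantile normalization. Cdkn1a (ENSMUSG00000023067, chr17:29090976-29100727, plus strand), which encodes p21, stood at 47.9, 46.7 and 42.2 FPKM in the PBS libraries and 10.6, 9.91 and 8.29 FPKM in the NP-D@MP libraries, and Cdkn2d fell from 20.97 ± 1.47 to 1.04 ± 0.418 FPKM, Cdkn2c from 14.4 ± 1.202 to 0.853 ± 0.297 FPKM, Cdkn1b from 6.71 ± 0.263 to 1.48 ± 0.616 FPKM and Cdkn3 from 4.05 ± 0.163 to 1.65 ± 0.366 FPKM.

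The list of G2/M and mitotic genes had 36 tested members, of which none rose and 28 fell, and their median log2 change relative to that of all genes was -0.87 deposited and -1.23 rescaled. Aurka (ENSMUSG00000027496, chr2:172356190-172370535, minus strand), the kinase of spindle poles, stood at 22.2, 23.7 and 22.4 FPKM in the PBS libraries and 1.06, 1.09 and 0.665 FPKM in the NP-D@MP libraries, 24.3-fold lower in deposited and 89.9-fold lower in rescaled values. Top2a, the topoisomerase that untangles sister chromatids, fell from 33.5 ± 2.801 to 2.31 ± 0.2398 FPKM, Plk1 from 26.5 ± 2.61 to 2.2 ± 1.33 FPKM, the anaphase activator Cdc20 from 60.6 ± 6.26 to 9.29 ± 1.105 FPKM and the spindle factor Tpx2 from 34.5 ± 1.44 to 18.5 ± 0.416 FPKM. The other 8 members were called higher in deposited values and none of them after rescaling: among them, Ccnb2 went from 28.4 ± 0.814 to 103 ± 3.02 FPKM (1.82 deposited and -0.03 rescaled in log2), Pttg1, which encodes securin, from 18.3 ± 1.42 to 50.9 ± 4.18 FPKM (1.43 deposited and -0.40 rescaled) and Cenpa, the centromeric histone, from 9.83 ± 0.906 to 40.5 ± 1.94 FPKM (1.94 deposited and 0.15 rescaled). Genes of DNA replication were divided. Of 32 tested, 3 rose and 12 fell, with 17 higher and 12 lower in deposited values, 3 and 28 rescaled and 8 higher and 17 lower with quantile normalization. The licensing factors Cdt1 and Cdc6 fell from 16.9 ± 1.02 to 1.903 ± 0.293 FPKM and from 2.51 ± 0.0339 to 0.0848 ± 0.0803 FPKM. Gins2 and Pold1 rose, from 4.07 ± 0.447 to 34.5 ± 0.548 FPKM and 12.3 ± 1.19 to 62.2 ± 6.04 FPKM.

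The promoters of mitotic genes are known for short elements that serve their expression late in the cycle, the cell cycle homology region (TTTGAA) and CCAAT boxes. TTTGAA on either strand was found in 67.7% of 31 promoters of the G2/M genes matched in RefSeq (GRCm38.p6, 250 bases before to 50 after the start), against 11.7% of all 7282 promoters of tested genes, 10.1% of those of risen genes and 12% of those of fallen genes. Among genes that fell by a log2 change of at least 2 in both scalings it was 18.2% of 423 promoters. CCAAT was found in 67.7% of the G2/M promoters, 39.9% of all, 40.7% of risen and 39.6% of fallen genes. Across every promoter in the reference the shares were 17.9% for TTTGAA and 37.4% for CCAAT. The promoters of Cdk1 (chr10:69352863-69353162) and Top2a (chr11:99024140-99024439), both on the minus strand, are shown 5′ to 3′ because both genes fell steeply and hold both elements, with matches in capitals, read as TTTGAA and CCAAT or, on the other strand, as TTCAAA and ATTGG. No match of one element overlaps the other. Cdk1 holds TTTGAA starting at -71 and -15 from the start site.
Cdk1: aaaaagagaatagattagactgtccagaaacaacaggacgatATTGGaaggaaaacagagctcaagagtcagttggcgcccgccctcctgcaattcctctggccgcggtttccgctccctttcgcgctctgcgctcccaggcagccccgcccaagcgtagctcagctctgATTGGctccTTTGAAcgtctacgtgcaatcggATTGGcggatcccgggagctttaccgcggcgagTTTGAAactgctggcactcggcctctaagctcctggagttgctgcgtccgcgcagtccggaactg
Top2a: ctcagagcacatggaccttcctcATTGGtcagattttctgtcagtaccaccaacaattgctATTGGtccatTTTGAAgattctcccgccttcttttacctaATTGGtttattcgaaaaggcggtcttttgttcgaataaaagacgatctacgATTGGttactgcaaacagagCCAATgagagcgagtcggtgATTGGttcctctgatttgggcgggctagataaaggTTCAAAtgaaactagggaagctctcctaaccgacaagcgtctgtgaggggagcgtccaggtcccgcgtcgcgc

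Of 38 tested genes of the RNA polymerase II machinery, 4 rose (10.5%) and 22 fell (57.9%). Polr2a (ENSMUSG00000005198, chr11:69733997-69758637, minus strand), which encodes the catalytic subunit, stood at 21.7, 22.3 and 19.2 FPKM in the PBS libraries and 2.19, 1.81 and 1.77 FPKM in the NP-D@MP libraries, 10.96-fold lower in deposited and 40.6-fold lower in rescaled values (limma adjusted p = 1.85e-10 and 4.39e-12). Polr2b, the second largest subunit, fell from 13.7 ± 0.175 to 1.57 ± 0.357 FPKM. The 4 risers included 3 small subunits of the same enzyme, Polr2f, Polr2g and Polr2l, which went from 10.8 ± 1.97 to 111 ± 5.61 FPKM, 35.6 ± 3.47 to 250.1 ± 4.81 FPKM and 13.2 ± 1.94 to 138 ± 5.66 FPKM. The remaining riser, Ssrp1, was called lower with quantile normalization. Members of this and the following lists that the naming rule did not pick are examples chosen after their values were seen.

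Transcription factor genes were mostly among those that fell. Of 601 tested genes that the deposited table assigns to a transcription factor family, 22 rose (3.66%) and 459 fell (76.4%), against 15.1% and 49.6% of the other 8311 protein-coding genes. Low-level protein-coding genes of any kind had similar shares. In bins 2, 3 and 4 of 10 by level (1 the lowest, level defined below), 80.9, 76.3 and 75.3% fell. The part of level in the transcription factor shares was not tested. In the C2H2 zinc finger family 2 of 247 rose and 213 fell, and all 10 tested ARID genes fell. In the 44 tested Zfp genes listed, none rose and 37 fell, with Zfp622 going from 6.92 ± 0.2796 to 0.516 ± 0.243 FPKM and Zfp740 from 21.7 ± 1.75 to 8.79 ± 0.647 FPKM. The immediate early genes gave 2 risers (6.45%) and 19 that fell (61.3%) of 31 tested. Fosb (ENSMUSG00000003545, chr7:19302696-19310051, minus strand), an AP-1 subunit, stood at 29.8, 31.8 and 34.1 FPKM in the PBS libraries and 0.857, 1.08 and 1.15 FPKM in the NP-D@MP libraries, 31.1-fold lower in deposited and 115-fold lower in rescaled values (log2 change -4.02, SE 0.12, and rescaled -5.37, SE 0.11, with limma adjusted p = 7.92e-11 and 6.38e-12). Its relative Fos fell from 59.9 ± 2.401 to 21.1 ± 1.11 FPKM, and the MAP kinase phosphatases Dusp1, Dusp4 and Dusp6 fell from 44.05 ± 0.519 to 3.99 ± 0.5099 FPKM, 27.2 ± 1.2 to 7.05 ± 1.06 FPKM and 30.4 ± 1.33 to 2.23 ± 0.8399 FPKM. The partner genes Jun and Junb were the 2 risers, from 16.6 ± 0.599 to 158 ± 23.7 FPKM and 58.3 ± 6.42 to 576 ± 40.4 FPKM, and were higher with quantile normalization too. Myc (ENSMUSG00000022346, chr15:61985391-61990374, plus strand) stood at 24.9, 29.2 and 25.9 FPKM in the PBS libraries and 21.7, 15 and 17.9 FPKM in the NP-D@MP libraries, 1.47-fold lower in deposited and 5.44-fold lower in rescaled values (limma adjusted p = 0.0045 and 5.31e-09).

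Of 40 tested splicing factor genes, 5 rose and 22 fell. The share that fell was near the 47.3% of all tested genes. Among those that fell were genes of SR proteins, which bind exons and guide the choice of splice sites: Srsf5 from 31.6 ± 2.73 to 5.67 ± 0.69 FPKM, Srsf7 from 33.5 ± 1.78 to 7.76 ± 0.878 FPKM, Srsf2 from 40.7 ± 3.86 to 11.6 ± 1.28 FPKM and the related Tra2b from 9.15 ± 0.38 to 1.11 ± 0.124 FPKM. The 5 risers were all Sm core proteins of the small nuclear ribonucleoproteins, led by Snrpf from 9.29 ± 3.03 to 209 ± 21.6 FPKM and Snrpd2 from 19.1 ± 1.31 to 259 ± 6.41 FPKM, while Snrpd1 of the same ring fell from 59.4 ± 1.43 to 12.8 ± 1.203 FPKM. Of these risers 4 were higher with quantile normalization as well, and Snrpg did not pass the threshold there.

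Among the 10 largest rises by the naming rule, 8 were genes of short noncoding RNAs. Of 29 tested small nuclear RNA genes 25 rose and none fell, while of 26 small nucleolar RNAs 7 rose and 7 fell. Several of these small nuclear RNA genes, Rnu12 and Gm22818 among them, had 0 reads in the PBS libraries. They passed the filter of 1 FPKM through other libraries and could not have fallen, so their count is no evidence on direction. Rnu12 (ENSMUSG00000065176, chr15:83149644-83149794, plus strand), the U12 RNA of the minor spliceosome, had 0 reads in each PBS library and 349, 347 and 315 reads with NP-D@MP, at least 122-fold higher after rescaling against a floor of 3 reads per library. Snora17 (ENSMUSG00000077192, chr2:26639190-26639321, minus strand), a guide RNA for ribosomal RNA modification, stood at 2.71, 6.42 and 5.11 FPKM in the PBS libraries and 1915, 1688 and 1719 FPKM in the NP-D@MP libraries, 374-fold higher in deposited and 101-fold higher in rescaled values (log2 change 8.33, SE 0.30, and rescaled 6.58, SE 0.33, with limma adjusted p = 3.28e-10 and 1.60e-09). Both are printed whole, since they lead the rises that the naming rule picks, which leaves out predicted loci, and differ in how far their reads can be placed: 53.9% of the 50-base words of Rnu12 and 0% of those of Snora17 occur in other genes. The sequences are those of the GENCODE M21 transcripts (GRCm38), 5′ to 3′, in lower case throughout.
Rnu12: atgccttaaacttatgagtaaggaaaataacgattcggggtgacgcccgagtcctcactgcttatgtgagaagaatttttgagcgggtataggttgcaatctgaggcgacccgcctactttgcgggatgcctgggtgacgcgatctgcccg
Snora17: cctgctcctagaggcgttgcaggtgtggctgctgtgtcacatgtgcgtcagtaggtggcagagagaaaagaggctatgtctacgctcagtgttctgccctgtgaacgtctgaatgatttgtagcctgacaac
The U1 gene Rnu1a1, the U5 gene Rnu5g and the U2 gene Rnu2-10 rose from 1.11 ± 0.577 to 423 ± 73.1 FPKM, 0.391 ± 0.191 to 109 ± 27.7 FPKM and 0.0568 ± 0.0984 to 24.5 ± 2.104 FPKM, but share 100%, 82.1% and 100% of their words with other copies. The U8 and U13 genes Snord118 and Snord13 had 0 reads in the PBS libraries and were at least 36.8-fold and 6.08-fold higher after rescaling. Mir1938 rested on 1 library more than the others, with 102 FPKM in N10 against 29.0 and 25.2 FPKM, and its log2 change was 4.41 deposited and 3.34 rescaled without N10. Small nuclear and nucleolar RNAs together made up 0.002603 ± 0.00036% of the PBS reads and 0.0305 ± 0.0015% with NP-D@MP. Whether the recovery of short RNA during library preparation differed between the groups was not tested.

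Trib3 (ENSMUSG00000032715, chr2:152337422-152344032, minus strand), a pseudokinase of the integrated stress response, fell furthest among all genes by the naming rule. It stood at 69.6, 77.6 and 59.7 FPKM in the PBS libraries and 0.629, 0.931 and 0.594 FPKM in the NP-D@MP libraries, 96.1-fold lower in deposited and 356-fold lower in rescaled values (log2 change -5.34, SE 0.15, and rescaled -6.63, SE 0.13, with limma adjusted p = 6.52e-11 and 4.39e-12). Of 23 tested genes of that response, 3 rose and 13 fell, with 2 higher and 20 lower with quantile normalization. Its master factor Atf4 fell from 214 ± 15.3 to 26.9 ± 3.12 FPKM, Ddit3 from 15.9 ± 1.69 to 2.62 ± 0.732 FPKM, Chac1 from 22.7 ± 5.21 to 1.24 ± 0.175 FPKM, Sesn2 from 19.1 ± 1.24 to 0.856 ± 0.187 FPKM and the amino acid transporter Slc7a5 from 78.5 ± 2.65 to 13.3 ± 1.46 FPKM. The 3 risers were metabolic enzymes, Phgdh from 240.3 ± 25.3 to 1975 ± 107 FPKM, Mthfd2 from 48.8 ± 1.703 to 299 ± 7.69 FPKM and Shmt2 from 91.2 ± 10.9 to 430.4 ± 10.9 FPKM, of which Phgdh did not pass the threshold and Shmt2 was lower with quantile normalization. The Trib3 promoter (chr2:152344011-152344310, minus strand, RefSeq GRCm38.p6) is shown because the ATF4 response element TGATGNAA, in either orientation, is found in 36.4% of 22 promoters of these genes and in 1.99% of all promoters of tested genes, 1.18% of those that rose and 2.07% of those that fell. In Trib3 the match, in capitals, starts 15 bases after the start site.
Trib3: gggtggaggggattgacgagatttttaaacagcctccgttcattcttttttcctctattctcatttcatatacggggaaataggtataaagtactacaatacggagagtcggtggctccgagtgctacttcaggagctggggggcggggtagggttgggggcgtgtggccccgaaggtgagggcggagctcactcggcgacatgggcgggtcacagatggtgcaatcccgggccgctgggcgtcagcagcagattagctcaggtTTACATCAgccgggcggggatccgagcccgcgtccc

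Of 25 tested chaperones and unfolded protein response genes, 9 rose and 8 fell, and quantile normalization gave 10 higher and 12 lower. Herpud1 (ENSMUSG00000031770, chr8:94386438-94395377, plus strand), a factor of protein disposal, stood at 39.03, 44.6 and 37.2 FPKM in the PBS libraries and 2.58, 1.81 and 1.44 FPKM in the NP-D@MP libraries. The transcription factor Xbp1 fell from 20.4 ± 1.6 to 0.778 ± 0.0738 FPKM, the sensor Ern1 from 20.3 ± 0.1998 to 5.06 ± 0.0952 FPKM and the chaperone Hspa5 (BiP) from 194 ± 5.29 to 23.9 ± 4.88 FPKM. Calr (ENSMUSG00000003814, chr8:84841850-84846934, minus strand), the lectin chaperone calreticulin, stood at 124, 130.0 and 115 FPKM in the PBS libraries and 1336, 1387 and 1436 FPKM in the NP-D@MP libraries, 11.3-fold higher in deposited and 3.04-fold higher in rescaled values (limma adjusted p = 4.06e-11 and 1.08e-09), and the disulfide isomerases Pdia6 and P4hb rose from 42.2 ± 2.23 to 338 ± 2.93 FPKM and 221 ± 16.2 to 1319 ± 32.8 FPKM, the latter being lower with quantile normalization. Of 18 tested cytosolic heat shock proteins, 1 rose (5.56%) and 8 fell (44.4%, near the 47.3% of all tested genes). Hspa8 fell from 257 ± 10.7 to 37.7 ± 2.23 FPKM and Hspb8 from 29.1 ± 3.04 to 5.58 ± 0.9003 FPKM.

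**Figure D3:**
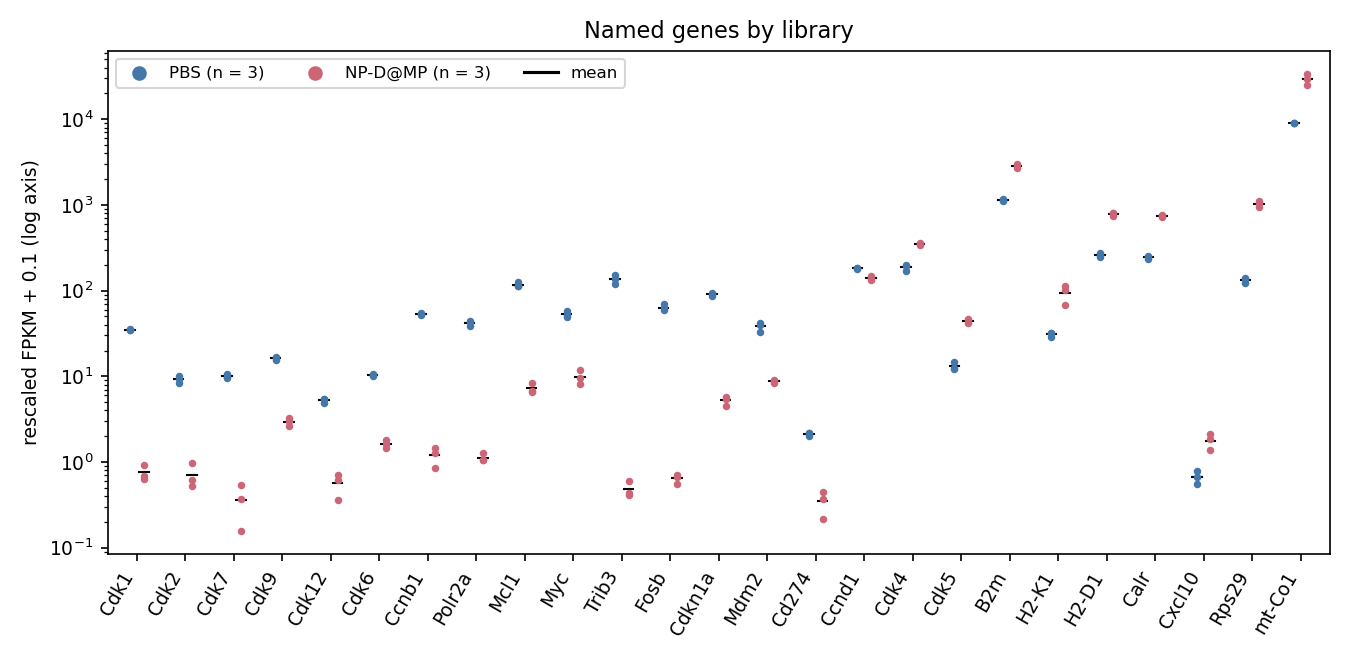
Rescaled FPKM plus 0.1 (vertical log axis) of selected named genes in each PBS and NP-D@MP library, with group means as black bars. Points of the groups lie apart for each gene shown. Trib3, Cdk1 and Polr2a show wide gaps downward, and Cdk5, B2m and Rps29 lie higher with NP-D@MP.

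Of 10 tested anti-apoptotic genes, none rose and 8 fell. Mcl1 (ENSMUSG00000038612, chr3:95658788-95663176, plus strand) stood at 57.05, 57.95 and 61.7 FPKM in the PBS libraries and 15.4, 12.6 and 12.1 FPKM in the NP-D@MP libraries, 4.404-fold lower in deposited and 16.3-fold lower in rescaled values (log2 change -2.06, SE 0.18, and rescaled -3.86, SE 0.16, with limma adjusted p = 5.49e-07 and 4.02e-10). Bcl2l1, which encodes BCL-XL, fell from 30.99 ± 2.61 to 12.2 ± 1.16 FPKM and the co-chaperone Bag3 from 9.44 ± 0.791 to 1.56 ± 0.471 FPKM. Of 16 tested pro-apoptotic genes, 2 rose and 9 fell, with a share that fell near the 47.3% of all tested genes, and quantile normalization gave 5 higher and 6 lower. Bid, the BH3-only link from death receptors, fell from 6.58 ± 0.511 to 0.163 ± 0.113 FPKM. The 2 risers were Bok, from 10.01 ± 1.54 to 252 ± 31.3 FPKM, and the cytochrome c gene Cycs, from 16.4 ± 1.83 to 250.2 ± 16.3 FPKM. Bax went from 49.4 ± 4.64 to 213 ± 21.4 FPKM, and its rescaled log2 change of 0.21 did not pass the threshold. The tumour necrosis factor receptor gene Tnfrsf1a fell from 24.4 ± 2.604 to 1.06 ± 0.443 FPKM.

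Among targets of p53 there were 1 riser (4.17%) and 14 that fell (58.3%) of 24 tested. Mdm2 (ENSMUSG00000020184, chr10:117688875-117710758, minus strand), the ubiquitin ligase of p53, stood at 20.2, 17 and 20.7 FPKM in the PBS libraries and 15.6, 16.7 and 16.4 FPKM in the NP-D@MP libraries. Its deposited log2 change of -0.23 (limma adjusted p = 0.043) did not pass the threshold without N1, N3, N10, N11 or N12, left out in turn, while rescaled it was -2.02. Gadd45a fell from 30.5 ± 0.661 to 2.82 ± 1.37 FPKM and Sesn2, given above, by a log2 change of -3.44 deposited and -4.74 rescaled. The single riser was the secreted factor Gdf15, from 0.0234 ± 0.0269 to 2.02 ± 0.445 FPKM. Being near 0 with PBS, Gdf15 passed the filter through other libraries and could hardly have fallen. Of 27 tested DNA repair genes, 2 rose (7.41%) and 14 fell (51.9%, near the 47.3% of all tested genes), while quantile normalization gave 11 higher and 10 lower. Msh6 and Brca2 fell from 11.1 ± 0.963 to 1.33 ± 0.156 FPKM and 3.07 ± 0.519 to 0.572 ± 0.122 FPKM, the histone variant gene H2afx fell from 35.9 ± 1.67 to 2.61 ± 2.04 FPKM, and Ercc1 and Parp1 rose from 28.9 ± 1.55 to 534 ± 35.2 FPKM and 13.6 ± 1.08 to 88.1 ± 6.41 FPKM.

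MHC class I molecules show peptides to T cells. Of 18 tested antigen presentation genes, 9 rose and 3 fell, and their median relative to all genes was 2.29 deposited and 1.74 rescaled. B2m (ENSMUSG00000060802, chr2:122147686-122153083, plus strand), the light chain, stood at 578, 572 and 581 FPKM in the PBS libraries and 5096, 5656 and 5428 FPKM in the NP-D@MP libraries, 9.34-fold higher in deposited and 2.52-fold higher in rescaled values, though its log2 change was -0.08 with quantile normalization. The heavy chains H2-K1 (ENSMUSG00000061232, chr17:33996017-34000333, minus strand) and H2-D1 (ENSMUSG00000073411, chr17:35262730-35267499, plus strand) stood at 16.4, 14.8 and 15.7 FPKM in the PBS libraries and 209, 128 and 190.5 FPKM in the NP-D@MP libraries, and at 131, 142 and 121 FPKM in the PBS libraries and 1497, 1396 and 1490 FPKM in the NP-D@MP libraries. Both rose (limma adjusted p = 8.54e-08 and 4.76e-05 for H2-K1), and the 3 libraries of a group lay apart from the other 3. Psme1, an activator of the immunoproteasome, rose from 20.7 ± 1.39 to 219.5 ± 9.32 FPKM, whereas the peptide transporter Tap1 fell from 3.61 ± 0.406 to 0.278 ± 0.131 FPKM and the regulator Irf1 from 4.23 ± 0.483 to 0.308 ± 0.0977 FPKM.

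Of 12 tested checkpoint ligand genes, 2 rose and 8 fell, and quantile normalization gave 3 higher and 5 lower. Cd274 (ENSMUSG00000016496, chr19:29367455-29388095, plus strand), the gene of the T cell inhibitor PD-L1, measured 1.07, 0.991 and 1.03 FPKM in the PBS libraries and 0.222, 0.5097 and 0.658 FPKM in the NP-D@MP libraries, a log2 change of -0.48 deposited and -1.29 rescaled (limma adjusted p = 0.013 and 2.79e-06). The groups did not overlap, but the deposited call was lost without N10 (log2 change -0.36) and the log2 change was 0.05 with quantile normalization. The poliovirus receptor gene Pvr and its relative Nectin2 fell from 18.1 ± 0.488 to 3.11 ± 0.0962 FPKM and 6.85 ± 0.595 to 0.146 ± 0.222 FPKM. The risers were the galectin gene Lgals3, from 122 ± 10.9 to 815 ± 85.3 FPKM, and Tgfb1, from 4.25 ± 0.738 to 25.1 ± 4.96 FPKM, of which Lgals3 did not pass the threshold with quantile normalization.

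Interferon-stimulated genes split, with 7 risers and 14 that fell of 24 tested. The membrane proteins Bst2 and Ifitm3 rose from 55.2 ± 6.68 to 926 ± 91.4 FPKM and 160.1 ± 12.7 to 1465 ± 101 FPKM (the latter did not pass the threshold with quantile normalization), and the factor Irf7 from 2.29 ± 0.608 to 22.9 ± 2.98 FPKM, while the ubiquitin-like Isg15 fell from 11.04 ± 0.333 to 2.19 ± 0.787 FPKM and the ligase gene Trim25 from 8.31 ± 0.482 to 1.996 ± 0.405 FPKM. Ifnb1 was listed at 0 in the PBS libraries and at 1.56 ± 0.525 FPKM with NP-D@MP. It had under 10 reads in at least 1 NP-D@MP library, so the value lies near the floor, and it could not have fallen. Among 10 tested chemokines and cytokines, 4 rose and 2 fell. Cxcl10 and Ccl5 were below 1 FPKM in each PBS library, so they passed the filter through other libraries and could hardly have fallen. The count therefore says little on direction. Cxcl10 (ENSMUSG00000034855, chr5:92346638-92348889, minus strand) stood at 0.231, 0.348 and 0.284 FPKM in the PBS libraries and 2.38, 3.28 and 3.798 FPKM in the NP-D@MP libraries, and Mif and Cxcl1 rose from 349.5 ± 28.3 to 4881 ± 420.1 FPKM and 6.72 ± 1.21 to 66.8 ± 4.81 FPKM. Ccl5 (ENSMUSG00000035042, chr11:83525778-83530518, minus strand) stood at 0.0678, 0.102 and 0.407 FPKM in the PBS libraries and 1.81, 1.37 and 1.17 FPKM in the NP-D@MP libraries. Its rescaled log2 change of 0.39 had a limma adjusted p of 0.15, its groups overlapped after rescaling, and without N3 it passed the threshold at 0.60. Of 16 tested genes of the NF-kB pathway, none rose and 13 fell, with Nfkb1 going from 4.82 ± 0.245 to 1.09 ± 0.0912 FPKM, Rela from 19.4 ± 1.48 to 5.25 ± 0.497 FPKM and the target Tnfaip2 from 47.9 ± 1.52 to 16.9 ± 0.798 FPKM.

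Of 77 tested genes of cytosolic ribosomal proteins, 69 rose and none fell, and the median relative to all genes was 3.24 deposited and 2.65 rescaled. With quantile normalization 36 were higher and 19 lower. Rps29 stood at 71.05, 69.6 and 60.97 FPKM in the PBS libraries and 1769, 1949 and 2086 FPKM in the NP-D@MP libraries, and Rpl37a at 124, 114 and 115 FPKM in the PBS libraries and 2281, 2333 and 2229 FPKM in the NP-D@MP libraries. They share 18.9% and 19.5% of their 50-base words with other genes, and 346 of 660 tested processed pseudogenes rose against 57 that fell. Of 36 tested translation factor genes, 12 rose and 13 fell, and quantile normalization gave 5 higher and 27 lower. Eif5a rose from 195 ± 25.1 to 2024 ± 109.6 FPKM, and the cap-binding Eif4e and the scaffold Eif3a fell from 14.8 ± 0.781 to 3.98 ± 0.501 FPKM and 61.02 ± 5.81 to 15.4 ± 0.936 FPKM.

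Nuclear genes of the respiratory chain rose in 44 of 53 tested cases and fell in none, with 42 higher and 8 lower with quantile normalization. Uqcr11 of complex III rose from 18.9 ± 3.72 to 647 ± 69.01 FPKM, Cox6a1 and Cox7a2 of complex IV from 146 ± 23.3 to 3112 ± 219 FPKM and 47.03 ± 5.13 to 791 ± 29.7 FPKM, and Atp5b of the ATP synthase from 238 ± 22.2 to 2577 ± 44.4 FPKM. Of 13 messenger RNAs encoded by mitochondria themselves 12 rose, while quantile normalization gave 7 higher and 3 lower. The highest of them, mt-Co1, stood at 4601, 4635 and 4471 FPKM in the PBS libraries and 46260, 63850 and 55600 FPKM in the NP-D@MP libraries. In mt-Co3 a single library led, with 17.9, 17.1 and 17.3 FPKM in the PBS libraries and 496, 387 and 2880 FPKM in the NP-D@MP libraries, and without N12 its log2 change was 4.57 deposited and 2.73 rescaled. Of the 50-base words of mt-Co1, mt-Co2 and mt-Co3, 51.1%, 100% and 99.9% also occur in other genes, so these levels are uncertain.

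Of 19 tested glycolysis genes, 9 rose and 4 fell, with 8 higher and 9 lower under quantile normalization. Pyruvate kinase Pkm rose from 298 ± 26 to 3173 ± 134 FPKM and aldolase Aldoa from 152 ± 10.7 to 1199 ± 54.6 FPKM (which did not pass the threshold with quantile normalization), and the glucose transporter Slc2a1 and hexokinase Hk2 fell from 21.9 ± 0.547 to 1.77 ± 0.217 FPKM and 9.898 ± 0.508 to 2.404 ± 0.484 FPKM. Of 29 tested genes of the NRF2 pathway against oxidative stress, 12 rose and 8 fell. The ferritin heavy chain Fth1 and the peroxidase Gpx1 rose from 1925 ± 71.8 to 23960 ± 1195 FPKM and 94.5 ± 6.45 to 1235 ± 64.3 FPKM, while Nfe2l2, the gene of NRF2 itself, fell from 32.4 ± 1.93 to 1.88 ± 0.247 FPKM and its target Hmox1 from 30.8 ± 1.22 to 2.895 ± 0.8897 FPKM. Of 22 tested cholesterol synthesis genes, 2 rose (9.09%) and 11 fell (50%, near the 47.3% of all tested genes). The epoxidase gene Sqle fell from 25.4 ± 0.612 to 1.96 ± 0.684 FPKM.

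Among lysosomal genes there were 21 risers and 2 that fell of 33 tested and 23 higher and 4 lower under quantile normalization. The proteases Ctsb and Ctsl rose from 65.1 ± 3.901 to 706 ± 6.48 FPKM and 189 ± 1.83 to 2530 ± 127 FPKM and the saposin precursor Psap from 125 ± 8.71 to 1379 ± 31.4 FPKM, while Tfeb, the transcription factor of lysosomal genes, fell from 1.14 ± 0.183 to 0.215 ± 0.0258 FPKM. Of 29 tested proteasome subunits, 6 rose and 5 fell, and quantile normalization gave 8 higher and 16 lower. Of 25 tested ubiquitin ligases and deubiquitinases, 2 rose and 15 fell, among them Rnf4 from 17.4 ± 1.25 to 2.46 ± 0.412 FPKM and Cul1 from 14.6 ± 1.55 to 2.19 ± 0.2795 FPKM. Of 29 tested actin cytoskeleton genes, 12 rose and 2 fell, though quantile normalization gave 13 higher and 13 lower. The actin severing factor Cfl1 and the thymosin Tmsb10 rose from 125 ± 11.7 to 2276 ± 48.9 FPKM and 145 ± 12.6 to 3185 ± 109.5 FPKM. Of 19 tested matrix and mesenchymal genes, 3 rose and 9 fell, shares near the 17.5% and 47.3% of all tested genes. Among them Col1a1 fell from 13.3 ± 1.44 to 1.399 ± 0.426 FPKM and Snai2 from 14.2 ± 1.88 to 0.946 ± 0.444 FPKM, and Timp1 rose from 37.03 ± 3.35 to 273 ± 12.6 FPKM.

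**Figure D4:**
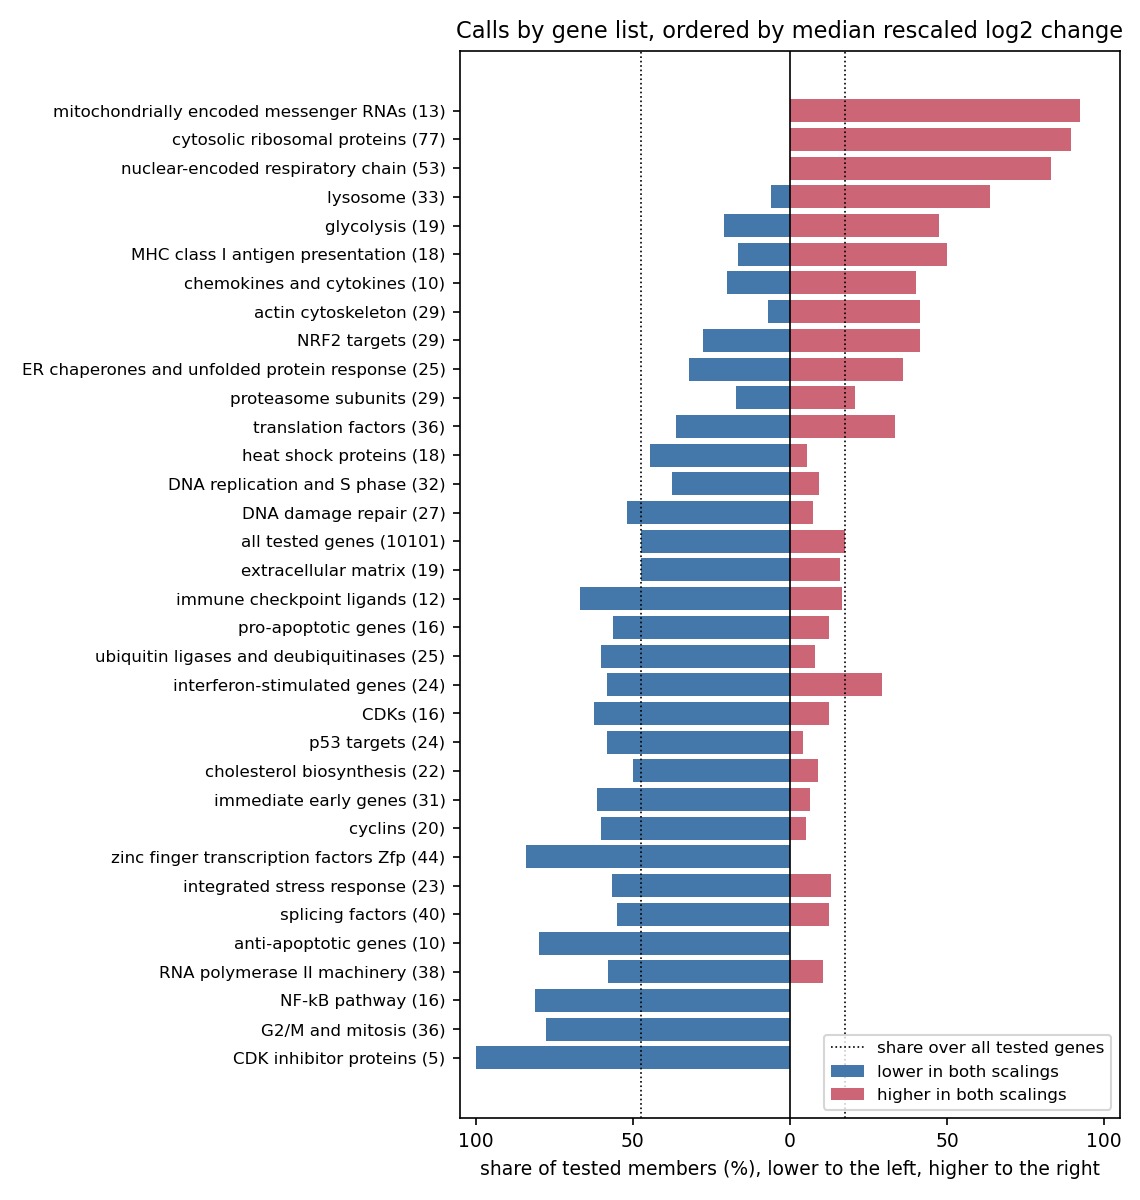
Share of the tested members of each gene list (number in brackets) that fell (bars to the left, %) or rose (bars to the right, %), ordered by the median rescaled log2 change. Dotted lines mark the shares over all tested genes, 47.3% and 17.5%. Mitochondrial, ribosomal and respiratory chain genes stand at the top, and CDK inhibitors and G2/M genes at the bottom.

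The other falls picked by the naming rule came from many pathways. Kpna2, an importin of nuclear transport, stood at 39.5, 38.5 and 39.9 FPKM in the PBS libraries and 0.931, 0.275 and 1.07 FPKM in the NP-D@MP libraries, with 62.6% of its words in other genes. Myadm fell from 61.4 ± 1.07 to 2.13 ± 0.1695 FPKM, the metalloreductase Steap1 from 110.0 ± 1.12 to 5.77 ± 0.7599 FPKM, the decay factor Pnrc2 from 25.5 ± 2.88 to 0.777 ± 0.674 FPKM and the small GTPase Arf6 from 41.8 ± 1.14 to 2.33 ± 0.777 FPKM. Among rises of longer genes, the prolactin family member Prl2c2 went from 0.246 ± 0.0907 to 29.99 ± 9.41 FPKM, with 83.3% of its words in other genes. Further large rises of coding genes, picked after their values were seen, were Ppp1r14b from 88.6 to 3283 FPKM, the import factor Tomm7 from 6.22 to 222 FPKM, the calcium-binding S100a4 from 24.9 to 772 FPKM and the copper chaperone Atox1 from 29.3 to 719 FPKM. Ppp1r14b and S100a4 share 21.7% and 47.4% of their words with other genes, so their levels are less certain. Of 37 tested genes with symbols in Hist, 31 rose and none fell, while the histone variant gene H2afx, outside that series of symbols, fell as given above. Several Hist genes were near 0 with PBS: Hist1h2bm had 0 reads in each PBS library, and Hist1h2ae had 0, 7 and 2. These passed the filter through other libraries and could hardly have fallen, so the Hist count is no evidence on direction. Hist1h2ae and Hist1h2ao share 43.2% and 93.5% of their words with other genes. Further falls were the methionine adenosyltransferase gene Mat2a from 41.1 to 2.57 FPKM, the transcription factor Ets2 from 14.8 to 0.353 FPKM and the calmodulin gene Calm2 from 154 to 13.3 FPKM.

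In 56 genes one group had at least 10 reads in each library and the other had none at all. With reads in NP-D@MP alone there were 17, among them the interferon gene Ifna13 (15, 11 and 17 reads) and the complement protease Cfd (23, 39 and 41 reads), at least 5.21-fold and 12.4-fold higher after rescaling. With reads in PBS alone there were 39, of which 11 were protein-coding. These included both lipoyl transferase genes, Lipt1 (94, 79 and 78 reads) and Lipt2 (89, 109 and 90 reads), at least 25.6-fold and 29.4-fold lower after rescaling, and Cxxc5 (141, 101 and 99 reads), at least 34.7-fold lower after rescaling. In deposited values a fall is 3.71 times smaller, and so are these bounds.

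The calls differed with gene length, span, GC content and level. Among 8912 tested protein-coding genes, cut into 10 bins of like number by each property, the bin with the shortest exonic length (median 1247 bases) had 41.8% that rose and 22.5% that fell, and the bin with the longest (median 12100 bases) had 2.92% and 67.5%. By genomic span the shares went from 36.6% and 30.9% in the shortest bin to 5.61% and 61.1% in the longest. By GC content 6.29% rose in the lowest bin and 23.5% in the highest. In the bin with the highest mean level 62.6% rose and 3.36% fell, and in the bin with the lowest 6.61% rose and 67.15% fell. In bin 2, the next lowest, 2.36% rose and 80.9% fell. Level was the mean of log2(rescaled FPKM + 1) over all 12 libraries, which include those compared. A rise lifts a gene's own level and a fall lowers it, so the link with level is partly built in. Across genes, which are not independent replicates, Spearman's correlation with the rescaled log2 change was -0.20 for exonic length, -0.16 for span and 0.14 for GC content (n = 8903 to 8912). The median length was 1739 bases for ribosomal proteins and 1908 bases for the respiratory chain, against 3980 bases over all tested genes. It was 4548 bases for lysosomal genes, 5001 bases for glycolysis genes and 6702 bases for the listed Zfp genes. The part of length in these results was not tested.

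**Figure D5:**
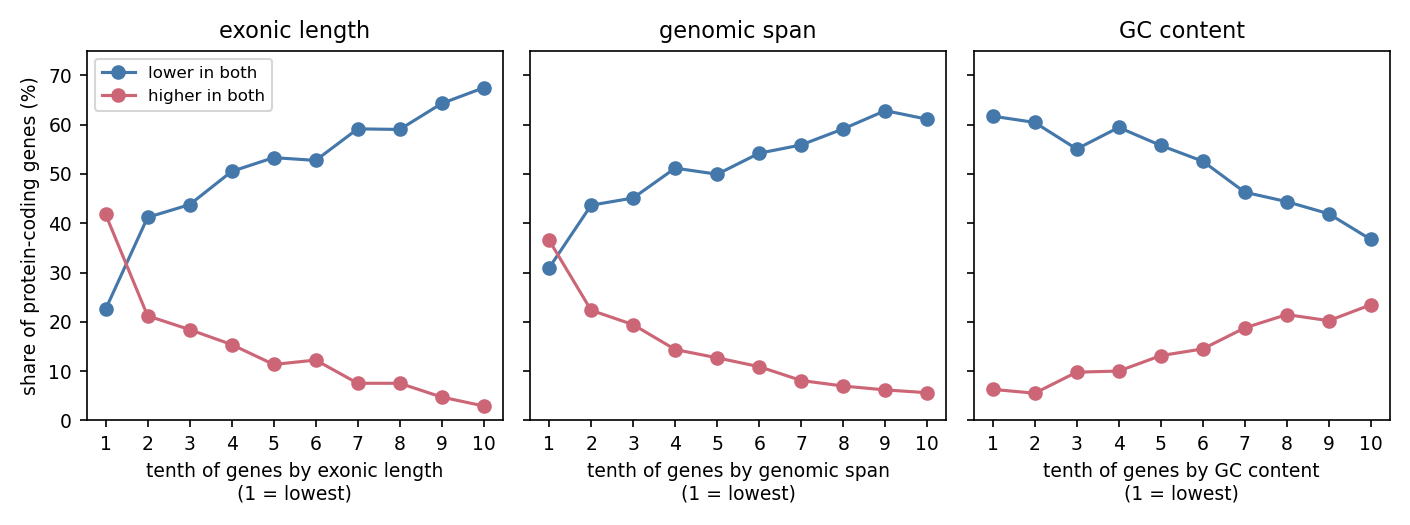
Share of 8912 protein-coding genes that rose or fell (%, vertical axis from 0) in each bin by exonic length, genomic span and GC content, from the lowest bin to the highest. Risen shares drop with exonic length from 41.8% to 2.92% and climb with GC content from 6.29% to 23.5%.

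NP-D@MP was also set against NP-D@M, whose name lacks the P. limma called 4 genes higher (0.0396%) and 1 lower (0.00990%) in deposited values, and 1 (0.00990%) each way after rescaling. The small nuclear RNA Gm22818 stood at 258, 293 and 281 FPKM with NP-D@M and 170, 167 and 167 FPKM with NP-D@MP. The others were of few reads: Mcat, a mitochondrial fatty acid synthesis gene, had 0, 0 and 4 reads with NP-D@M and 22, 17 and 19 with NP-D@MP, and Borcs5 had 0, 0 and 2 against 15, 14 and 11. The processed pseudogene Gm11461, called in both scalings, had no reads in the NP-D@M libraries and 7, 6 and 4 reads with NP-D@MP. Without N9, the library that stood apart, 969 genes were higher (9.59%) and 290 lower (2.87%) in deposited values, and 330 (3.27%) and 157 (1.55%) after rescaling. None of the 16 tested CDK genes was called with or without N9, which does not show that their levels were alike. Without N9 the NP-D@M group has 2 libraries.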

How the data were processed

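The deposited table gives FPKM per gene for 12 libraries (4 groups of 3), made by the authors from 1 µg of total RNA with TruSeq kits per the labels' protocols. Bowtie 0.12.2 and mm8 are named per the submitters' processing notes, although 12113 of 12584 genes carry GRCm38 coordinates identical to GENCODE M21. The counting tool and the use of strand are not given in the sources used here, so overlapping, antisense and near-identical genes are uncertain. Multiplying the deposited FPKM by gene length gave whole reads for all values above 0 (relative tolerance 1e-06), and hence the authors' library sizes. Rescaled FPKM divide those reads by gene length and by the reads in the table.

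Genes with at least 1 FPKM in at least 3 libraries were tested with limma 3.58.1 in R 4.3.3 on log2(value + 1), with 12 libraries in 1 model (8 residual degrees of freedom) and Benjamini-Hochberg adjustment over 10101 genes at 0.05. Shares of reads were compared by exact permutation. The model was tested on simulated data. Fold limits against 0 reads use 3 reads per library, cover counting error only, and 1 read per kb was worth 0.0326 to 0.0355 FPKM with PBS and 0.132 to 0.140 FPKM with NP-D@MP. Alternatives covered the filter, pseudocount, limma settings, libraries in the model, thresholds, quantile and median-ratio scaling, and voom on the recovered reads.

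The members and lists were chosen with earlier results of these data known. Named genes were 22 fixed by name, the 10 largest rises and falls by the smaller log2 change of the 2 scalings (groups not overlapping, rescaled mean of at least 5, no predicted loci or pseudogenes), and, for lists with most tested members called in 1 direction, the 2 members of smallest p.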

Additional observations from a re-analysis of the deposited data

How the results depend on the processing

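Of 2622 pairs of a named gene and an alternative, 2590 kept their direction and their side of the threshold, 26 lost the call, 2 gained it and 4 changed sign. Most named genes were picked because they were called in both scalings, so this stability is partly built in. Pairs of the same gene are also not independent. The sign changes were in deposited values with quantile normalization for Ccnd1 (-0.94), Cd274 (0.051) and B2m (-0.075), and in rescaled values for Ccnd1 with voom at median-ratio library sizes (1.42). With a mean of at least 5 FPKM, which leaves fewer genes tested, 3245 genes were higher and 1339 lower in deposited values. After rescaling 1461 were higher and 2856 lower, and in both scalings 1461 were higher and 1339 lower. The excess of falls over rises in both scalings was thus not kept under this filter. A log2 change of at least 1 left 2796 lower in deposited values and in both scalings, and 894 higher in rescaled values and in both. Voom with median-ratio library sizes gave 4283 higher genes in place of the 1771 of the rescaled values, because those sizes follow the authors' scaling. Leaving out each of the 6 libraries in turn gave 4210 to 4263 higher and 4612 to 4672 lower genes in deposited values, 1660 to 1711 higher and 7052 to 7091 lower after rescaling, and 1660 to 1711 higher and 4612 to 4672 lower in both. Leaving out N9, an alternative chosen after seeing the data, moved NP-D@MP against NP-D@M to 969 higher and 290 lower in deposited values and to 330 and 157 after rescaling, and the cause was not tested. No paired analysis was possible because the labels number the libraries in 1 running series from N1 to N12 and no number is shared between groups. Depth limits genes of a few reads, where 1 read is worth more FPKM with NP-D@MP than with PBS.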
